A study of Homo sapiens with 2 samples.

Results

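The BCL2 family, the caspases, the death receptors and the proteins that connect them were followed as a set of 54 genes, chosen by gene symbol from what their proteins do, among the 26255 genes measured. RNA was sequenced from OVSAHO, an established cell line of human serous ovarian cancer, in 2 libraries with 1 library a group. In the A2-siA4 library, expression of SMARCA2 was raised and that of SMARCA4 was knocked down, and the genotype label reads SMARCA2 stable, SMARCA4 knockdown. SMARCA2 and SMARCA4 are the alternative ATPases of the SWI/SNF chromatin remodelling complex. The Ctrl-siNC library came from control cells labelled WT. Both cultures had received carboplatin, which forms platinum adducts on DNA, at 25 µM for 2 days, so no untreated cells enter any comparison. The sample titles carry different numbers for the 2 cultures, and what the numbers mark is not stated, so a difference between the groups cannot be told apart from a difference between these cultures.

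Cells die by apoptosis along a pair of connected routes. In the mitochondrial route, BH3-only proteins sense damage, bind the anti-apoptotic BCL2 proteins and release BAX and BAK to permeabilize the outer mitochondrial membrane, after which cytochrome c assembles the apoptosome with APAF1 and activates caspase-9. In the receptor route, ligands of the TNF family bind death receptors, which recruit FADD and caspase-8 or, through TRADD, RIPK1 and TRAF2, signal for survival. Inhibitor of apoptosis proteins restrain both routes, and the mitochondrial proteins SMAC (DIABLO) and HTRA2 antagonize those inhibitors. Platinum drugs are known to kill ovarian cancer cells largely through the mitochondrial route.

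Levels are given in FPKM, fragments per kilobase of transcript scaled to the mapped fragments of the library. Genes entered the count if either library held them at 1 FPKM or above, which is called the filter here. The log2 ratio was taken as A2-siA4 over Ctrl-siNC after adding 1 FPKM to each value, and a gene was called higher at a ratio of 1 or above and lower at -1 or below, a 2-fold threshold. This is a rule of size and not a test, because 1 library a group gives no spread between replicates. The words past 2-fold and within 2-fold refer to this log2 ratio. The added 1 FPKM shrinks the ratio of scarce genes, whose fold can exceed 2 without a call. Folds are ratios of the deposited FPKM, and the 95% counting interval after a fold is an exact binomial (Clopper-Pearson) interval on approximate fragment numbers, which covers counting error only. Such an interval compares 2 libraries and not the conditions.

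The label check and the depth were as follows. SMARCA2 was at 2.60 FPKM in A2-siA4 and 0.205 FPKM in Ctrl-siNC, and SMARCA4 was at 4.49 FPKM in A2-siA4 and 27.9 FPKM in Ctrl-siNC. The depth estimated from the steps of low values was about 8850000 fragments in A2-siA4 and 9050000 in Ctrl-siNC, so that 1 FPKM of a 2000-base transcript was about 15.9 fragments in A2-siA4 and 16.3 fragments in Ctrl-siNC. Of 11 markers of serous ovarian epithelium, 10 were at 1 FPKM or more in a library, and MUC16 was at 0 in A2-siA4 and 0.0608 FPKM in Ctrl-siNC. All 6 fibroblast markers and all 3 endothelial markers were under 1 FPKM in both libraries. Of 5 leukocyte markers, PTPRC and CD3E were at 0 in both libraries. CD68 was at 11.1 FPKM in A2-siA4 and 34.9 FPKM in Ctrl-siNC, and the part of this difference in the results below was not tested.

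In the A2-siA4 library, RNA of the BH3-only gene PMAIP1, the TWEAK receptor TNFRSF12A, the pore-forming effector BAK1 and the mitochondrial protease HTRA2 was lower, and RNA of the caspase inhibitor XIAP and the decoy receptor TNFRSF11B was higher. Of the 54 genes, 43 were at 1 FPKM or more in a library, and 6 of these were past 2-fold, 2 higher and 4 lower. That is 14.0% of the 43, against 15.5% of all 11785 genes that passed the same filter, so the set as a whole was past 2-fold about as often as all genes. Among all genes, 7.85% were higher and 7.61% lower. At a 1.5-fold threshold 15 of the 43 were called (34.9%), 6 higher and 9 lower, against 40.4% of all genes, 19.1% higher and 21.3% lower. At a 4-fold threshold none was higher and PMAIP1 was lower, against 1.32% of all genes, 0.602% higher and 0.713% lower. The median log2 ratio was -0.15 over the 43 genes and -0.06 over all genes. The other 37 of the 43 lay within 2-fold, 13 of the 43 had a log2 ratio within 0.2 of 0, and 11 genes stayed under 1 FPKM in both libraries.

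**Figure D1:**
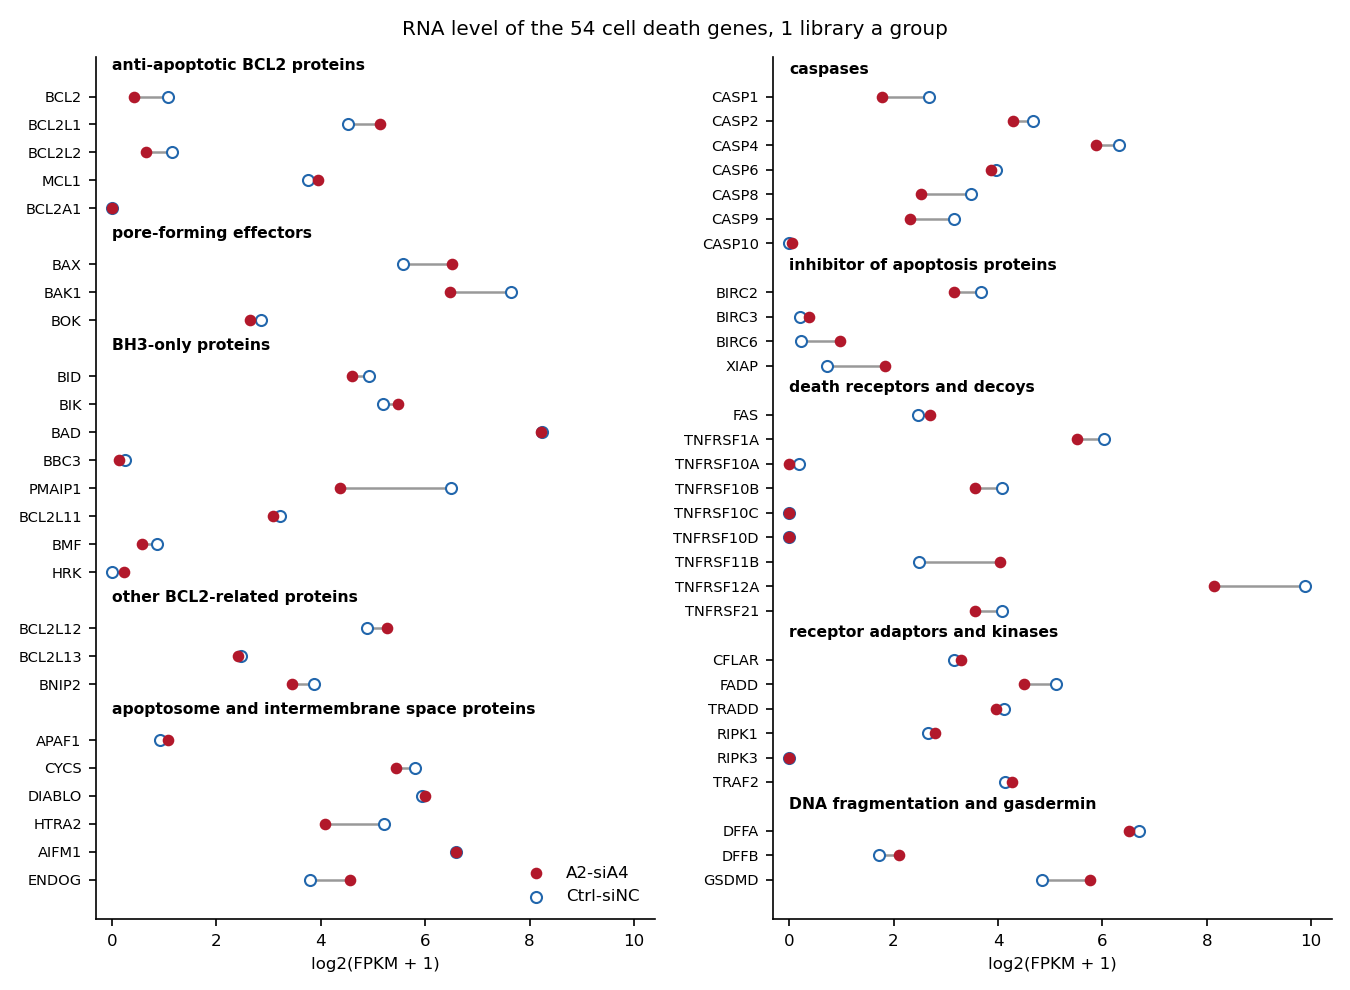
RNA level of each of the 54 genes as log2(FPKM + 1), arranged by role, with filled red points for the A2-siA4 library and open blue points for the Ctrl-siNC library, 1 library a group, and grey lines joining the 2 values of a gene. The longest lines belong to PMAIP1 (19.5 FPKM in A2-siA4 and 89.6 FPKM in Ctrl-siNC), TNFRSF12A (281 FPKM in A2-siA4 and 949 FPKM in Ctrl-siNC) and TNFRSF11B (15.5 FPKM in A2-siA4 and 4.58 FPKM in Ctrl-siNC), and most other pairs lie close together.

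The anti-apoptotic proteins, which hold BAX, BAK and the BH3-only proteins in check, had no gene past 2-fold on the log2 ratio among 4 above the filter. The folds of the scarce BCL2 and BCL2L2 on the deposited FPKM were larger than 2. BCL2L1, which encodes BCL-XL, was the most abundant, at 34.0 FPKM in A2-siA4 and 22.0 FPKM in Ctrl-siNC (1.54-fold higher, 95% counting interval 1.37 to 1.73). MCL1, a short-lived protein that NOXA binds, was at 14.4 FPKM in A2-siA4 and 12.5 FPKM in Ctrl-siNC (1.15-fold, 1.004 to 1.33). BCL2 itself was scarce, at 0.337 FPKM in A2-siA4 and 1.10 FPKM in Ctrl-siNC (3.26-fold lower, 1.90 to 5.87), on about 18.02 fragments in A2-siA4 and 60.1 in Ctrl-siNC. Its log2 ratio of -0.65 became -1.07 once fitted trends on the length, GC content and level of transcripts were removed. BCL2L2 was at 0.577 FPKM in A2-siA4 and 1.23 FPKM in Ctrl-siNC (2.12-fold lower, 1.21 to 4.13). Its value is uncertain because the read-through locus BCL2L2-PABPN1, which contains its exons, was listed at 53.2 FPKM in A2-siA4 and 34.5 FPKM in Ctrl-siNC. BCL2A1 was listed at 0 in both libraries. On the strand opposite BCL2L1 lies the antisense gene ABALON, listed at 19.2 FPKM in A2-siA4 and 19.3 FPKM in Ctrl-siNC, and this library type does not tell the strands apart.

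The pore-forming effectors BAX and BAK1 lay on opposite sides of 0 on the log2 ratio scale. BAK1, whose protein sits in the outer mitochondrial membrane, was at 87.9 FPKM in A2-siA4 and 198 FPKM in Ctrl-siNC, 2.25-fold lower (2.12 to 2.40). BAX, a cytosolic protein that moves to mitochondria when activated, was at 89.8 FPKM in A2-siA4 and 46.6 FPKM in Ctrl-siNC, a log2 ratio of 0.93 that lay just inside the threshold. BAX RNA was thus 1.02 times the level of BAK1 RNA in A2-siA4, against 0.235 times in Ctrl-siNC. With the trends on length, GC content and level removed, BAK1 was at -0.91 and BAX at 1.10, so that BAX and not BAK1 was past 2-fold. BAX was also past 2-fold when each library was scaled to a common sum. BOK, a less studied relative of BAX and BAK, was at 5.21 FPKM in A2-siA4 and 6.23 FPKM in Ctrl-siNC.

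Among the BH3-only genes, PMAIP1 stood out, and the other genes above the filter were within 2-fold. PMAIP1 encodes NOXA, a selective antagonist of MCL1, and was at 19.5 FPKM in A2-siA4 and 89.6 FPKM in Ctrl-siNC, 4.59-fold lower (4.06 to 5.22), on about 302 fragments in A2-siA4 and 1418 in Ctrl-siNC. Its log2 ratio was -2.14, and 71 of the 11785 genes, PMAIP1 included, had a ratio as low or lower. It was past 2-fold under each of the 9 alternative settings that kept the threshold, with log2 ratios of -2.19 to -1.65. Some of these settings change only the filter and leave the ratio as it was. PMAIP1 RNA was 1.35 times the level of MCL1 RNA in A2-siA4 and 7.17 times in Ctrl-siNC. BAD, which antagonizes BCL2 and BCL-XL, was the most abundant BH3-only gene, at 297 FPKM in A2-siA4 and 299 FPKM in Ctrl-siNC (0.993-fold, 0.936 to 1.05). BIK was at 43.9 FPKM in A2-siA4 and 35.4 FPKM in Ctrl-siNC (1.24-fold, 1.04 to 1.47). BID, which caspase-8 cleaves to link the receptor route to mitochondria, was at 23.2 FPKM in A2-siA4 and 29.3 FPKM in Ctrl-siNC. BCL2L11, which encodes BIM, was at 7.54 FPKM in A2-siA4 and 8.32 FPKM in Ctrl-siNC. The remaining BH3-only genes were near the limit of detection: BBC3, which encodes PUMA, was at 0.0983 FPKM in A2-siA4 and 0.192 FPKM in Ctrl-siNC, on about 1.29 and 2.58 fragments, BMF was at 0.485 FPKM in A2-siA4 and 0.817 FPKM in Ctrl-siNC, and HRK was at 0.174 FPKM in A2-siA4 and listed at 0 in Ctrl-siNC.

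The bases upstream of the transcription start are shown for PMAIP1 and BAK1, the lower BCL2 family genes, and for XIAP, the higher caspase inhibitor. They are RefSeq promoter sequences of build GRCh38.p14, read 5′ to 3′ on the gene's strand, and stop where GENCODE 29 places the first exon. Capitals mark the letters GGGCGG, the core of the SP1 site, or TGACG, the core of the cAMP response element (CRE) that CREB and ATF factors bind, on either strand. TGACG was added after the PMAIP1 sequence had been seen. PMAIP1 lies at chr18:59899746-59899947 on the plus strand, BAK1 at chr6:33580294-33580526 on the minus strand and XIAP at chrX:123859458-123859707 on the plus strand, the most upstream of 3 listed XIAP starts.
PMAIP1: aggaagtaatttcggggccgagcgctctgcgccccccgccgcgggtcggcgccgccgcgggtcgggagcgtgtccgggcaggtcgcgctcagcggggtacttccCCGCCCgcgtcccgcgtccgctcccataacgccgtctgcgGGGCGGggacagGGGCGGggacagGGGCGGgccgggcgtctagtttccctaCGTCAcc
BAK1: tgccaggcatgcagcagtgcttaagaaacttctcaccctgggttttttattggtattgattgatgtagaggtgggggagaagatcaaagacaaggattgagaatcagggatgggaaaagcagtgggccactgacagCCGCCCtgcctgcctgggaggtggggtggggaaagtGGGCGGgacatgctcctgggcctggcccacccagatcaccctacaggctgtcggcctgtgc
XIAP: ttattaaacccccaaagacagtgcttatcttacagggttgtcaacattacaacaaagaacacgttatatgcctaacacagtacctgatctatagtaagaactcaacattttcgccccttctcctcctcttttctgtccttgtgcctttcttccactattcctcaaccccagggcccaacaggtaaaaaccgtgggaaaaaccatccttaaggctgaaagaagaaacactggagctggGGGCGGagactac

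The PMAIP1 window was the richest in G and C of the shown windows, at 76.2%, against 57.1% for BAK1 and 44.8% for XIAP. It held GGGCGG letters beginning 146, 106, 94 and 82 bases before the RefSeq start, the last 3 of them in a tandem array, and TGACG on the opposite strand 55 bases before it. BAK1 held GGGCGG at 114 and 78 bases and XIAP at 13 bases before the start. RefSeq promoters were read for 39 of the 54 genes, in 69 windows of 250 bases, some of which overlap. The other members were left out of this count, some of them by chromosome, which does not mean that they lack RefSeq promoters. The windows of all promoters were not limited in this way. The member shares that follow thus describe these 39 genes and not the whole set. GGGCGG was in 63.8% of these 69 windows and in 42.6% of all 35116 promoter windows, and TGACG was in 33.3% and 21.2%. The palindromic full CRE (TGACGTCA) was in 1 of the 69, an AP-1 site (TGANTCA) in 5, the TEAD letters GGAATG in 2, the ETS letters CCGGAA in 11, the E-box CACGTG in 6 and an ATF4 composite site (TGATGNAA) in 2, against 1.65%, 6.57%, 11.9%, 14.5%, 6.34% and 3.14% of all windows. A match describes the letters and is not a measured binding site.

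Of the other BCL2-related genes, BCL2L12 was at 37.4 FPKM in A2-siA4 and 28.7 FPKM in Ctrl-siNC (1.30-fold, 1.12 to 1.52). BNIP2 was at 9.89 FPKM in A2-siA4 and 13.5 FPKM in Ctrl-siNC (1.37-fold lower, 1.18 to 1.58). BCL2L13, a mitochondrial protein with a role in mitophagy, was at 4.36 FPKM in A2-siA4 and 4.51 FPKM in Ctrl-siNC. The values of these 3 genes differed by less than 2-fold. BCL2L12 shares exon bases with IRF3 on the opposite strand, listed at 68.6 FPKM in A2-siA4 and 52.3 FPKM in Ctrl-siNC.

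RNA levels of the proteins that mitochondria release were within 2-fold between the 2 libraries, apart from HTRA2. HTRA2, a serine protease that antagonizes XIAP, was at 15.9 FPKM in A2-siA4 and 36.2 FPKM in Ctrl-siNC, 2.28-fold lower (1.91 to 2.73). Its exons overlap those of AUP1 on the opposite strand, listed at 141 FPKM in A2-siA4 and 226 FPKM in Ctrl-siNC, and reads of the overlap cannot be told apart. With the trends removed its log2 ratio was -0.90, short of the threshold. DIABLO, the other antagonist of the inhibitors, was at 62.5 FPKM in A2-siA4 and 60.4 FPKM in Ctrl-siNC (1.04-fold, 0.944 to 1.14). AIFM1, a flavoprotein that can act in caspase-independent death, was at 94.998 FPKM in A2-siA4 and 96.0 FPKM in Ctrl-siNC (0.990-fold, 0.926 to 1.06). CYCS, cytochrome c, was at 42.2 FPKM in A2-siA4 and 54.7 FPKM in Ctrl-siNC, an uncertain value because the genome holds many processed copies of this gene. ENDOG, a mitochondrial nuclease, was at 22.6 FPKM in A2-siA4 and 12.9 FPKM in Ctrl-siNC (1.76-fold higher, 1.39 to 2.24). APAF1, the scaffold of the apoptosome, was at only 1.09 FPKM in A2-siA4 and 0.889 FPKM in Ctrl-siNC.

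None of the caspases was past 2-fold on the log2 ratio, but all 6 above the filter had a log2 ratio below 0, with a median of -0.65. Ratios below 0 were found for 53.5% of all genes. With each library scaled to a common sum, which put the median of the same 11785 genes at 0.06 in place of -0.06, or with the trends removed, 5 of the 6 stayed below 0. CASP8, the initiator caspase of the receptor route, was at 4.74 FPKM in A2-siA4 and 10.2 FPKM in Ctrl-siNC (2.16-fold lower, 1.60 to 2.92), a log2 ratio of -0.97 that lay just inside the threshold. CASP9, the initiator of the mitochondrial route, was at 3.96 FPKM in A2-siA4 and 7.93 FPKM in Ctrl-siNC (2.00-fold lower, 1.44 to 2.78), with a log2 ratio of -0.85. CASP1, which processes inflammatory cytokines, was at 2.43 FPKM in A2-siA4 and 5.38 FPKM in Ctrl-siNC (2.22-fold lower, 1.31 to 4.02), on about 20.4 fragments in A2-siA4 and 46.2 in Ctrl-siNC. CASP1 closely resembles the neighbouring gene CARD16 over part of its length, and CARD16 was at 23.0 FPKM in A2-siA4 and 7.88 FPKM in Ctrl-siNC, so reads of this pair may have been split. CASP4, the sensor of intracellular lipopolysaccharide, was the most abundant caspase of the set, at 58.1 FPKM in A2-siA4 and 79.4 FPKM in Ctrl-siNC (1.37-fold lower, 1.25 to 1.498). CASP2 was at 18.6 FPKM in A2-siA4 and 24.4 FPKM in Ctrl-siNC (1.31-fold lower, 1.18 to 1.45). CASP6 was at 13.5 FPKM in A2-siA4 and 14.6 FPKM in Ctrl-siNC. CASP10 was at 0.0410 FPKM in A2-siA4 and listed at 0 in Ctrl-siNC.

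**Figure D2:**
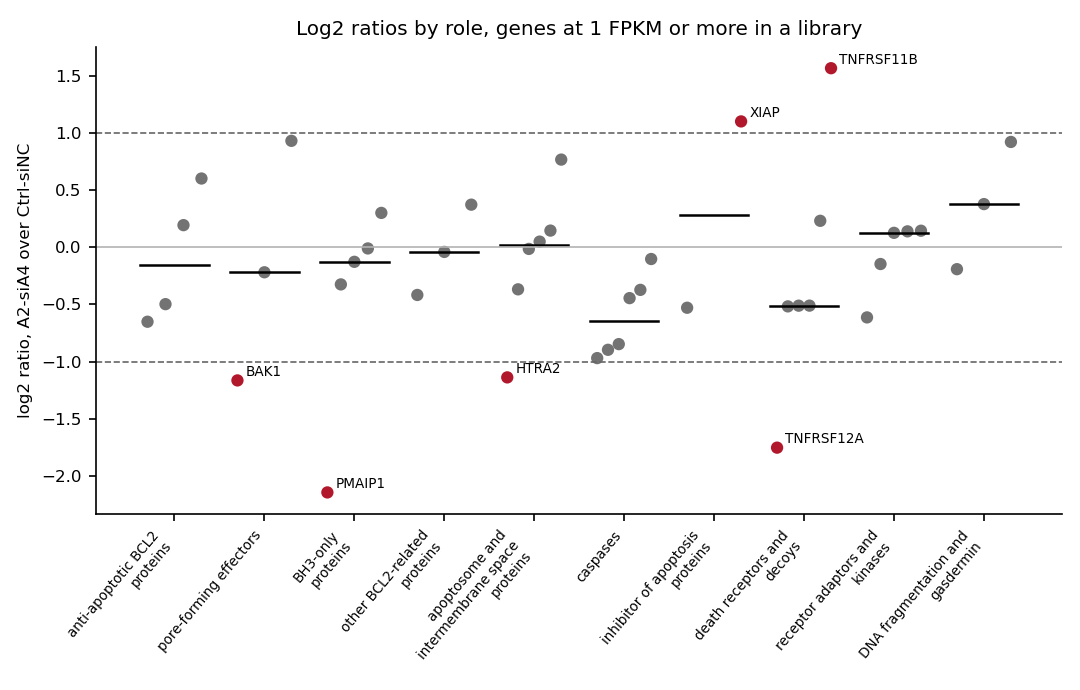
Log2 ratio, A2-siA4 over Ctrl-siNC with 1 FPKM added, of the 43 genes at 1 FPKM or more in a library, arranged by role, with a black line at each role's median and dashed lines at the 2-fold threshold. Red points are past it, 2 above and 4 below, and all 6 caspases lie below 0.

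Among the inhibitor of apoptosis genes, XIAP was higher. XIAP, which binds and inhibits active caspases, was at 2.55 FPKM in A2-siA4 and 0.656 FPKM in Ctrl-siNC, 3.89-fold higher (2.80 to 5.40), on about 185 fragments in A2-siA4 and 48.7 in Ctrl-siNC. BIRC6, a very large ubiquitin ligase that also binds caspases, was at 0.975 FPKM in A2-siA4 and 0.171 FPKM in Ctrl-siNC, a 5.71-fold ratio (3.68 to 9.22), but stayed just under the 1 FPKM filter and was not called. Both have long transcripts, of 8415 bases for XIAP and 15703 bases for BIRC6. Among all genes with transcripts of 6000 bases or more, 16.7% were higher and 2.05% lower by the same rule, and their median log2 ratio was 0.44, against -0.20 for transcripts from 1500 to under 3000 bases. With the trends on length, GC content and level removed, the log2 ratio of XIAP was 0.71 and it was no longer past 2-fold. BIRC2, which encodes cIAP1, a ubiquitin ligase of the TNF receptor complex, was at 7.88 FPKM in A2-siA4 and 11.8 FPKM in Ctrl-siNC (1.499-fold lower, 1.27 to 1.77). Its paralog BIRC3 was at 0.303 FPKM in A2-siA4 and 0.160 FPKM in Ctrl-siNC, on about 11.1 fragments in A2-siA4 and 5.99 in Ctrl-siNC.

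**Figure D3:**
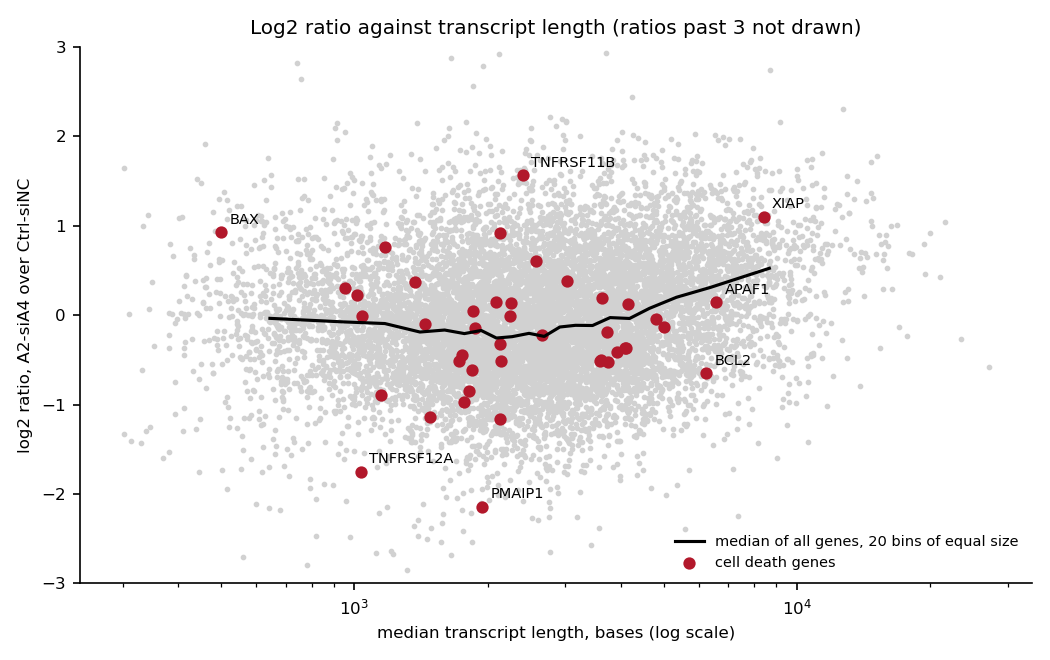
Log2 ratio, A2-siA4 over Ctrl-siNC with 1 FPKM added, against the median length of a gene's transcripts on a log scale, with all genes at 1 FPKM or more in a library in grey, the 43 cell death genes in red and the median of all genes in 20 bins of equal size as a black line. The line climbs at the longest transcripts, where XIAP lies, while PMAIP1, TNFRSF12A and TNFRSF11B lie far from it.

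The death receptors and their relatives held 1 lower and 1 higher gene among 6 above the filter. TNFRSF12A, which encodes FN14, the receptor of the ligand TWEAK, was at 281 FPKM in A2-siA4 and 949 FPKM in Ctrl-siNC, 3.38-fold lower (3.21 to 3.55), on about 2074 and 7156 fragments. It was the most abundant of the 54 genes in the Ctrl-siNC library, where 194 of all genes were at its level or above, against 552 in A2-siA4. TNFRSF11B encodes osteoprotegerin, a secreted decoy that binds RANKL and the death ligand TRAIL, and was at 15.5 FPKM in A2-siA4 and 4.58 FPKM in Ctrl-siNC, 3.39-fold higher (2.68 to 4.35). TNFRSF12A and TNFRSF11B were both past 2-fold under each of the 9 alternative settings that kept the threshold, with log2 ratios of -1.76 to -1.61 and of 1.10 to 1.75. Those settings that change only the filter leave both ratios as they were.

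The receptors with a death domain that passed the filter were within 2-fold. TNFRSF1A, the main TNF receptor, was at 44.6 FPKM in A2-siA4 and 64.0 FPKM in Ctrl-siNC (1.43-fold lower, 1.31 to 1.58). TNFRSF10B, which encodes the TRAIL receptor DR5, was at 10.8 FPKM in A2-siA4 and 15.9 FPKM in Ctrl-siNC (1.47-fold lower, 1.19 to 1.82), and TNFRSF21, which encodes DR6, was at 10.9 FPKM in A2-siA4 and 15.9 FPKM in Ctrl-siNC. These 3 receptors had log2 ratios of -0.51 to -0.52, close to one another. FAS was at 5.49 FPKM in A2-siA4 and 4.53 FPKM in Ctrl-siNC (1.21-fold, 0.762 to 2.03). The other TRAIL receptor, TNFRSF10A, was listed at 0 in A2-siA4 and at 0.143 FPKM in Ctrl-siNC, on about 3.24 fragments, and the membrane decoys TNFRSF10C and TNFRSF10D were listed at 0 in both. Osteoprotegerin RNA was 1.44 times the level of DR5 RNA in A2-siA4 and 0.288 times in Ctrl-siNC.

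The adaptors and kinases below the receptors had no gene past 2-fold among 5 above the filter. FADD, which bridges death receptors to caspase-8, was at 21.7 FPKM in A2-siA4 and 33.8 FPKM in Ctrl-siNC (1.55-fold lower, 1.34 to 1.79). CFLAR, which encodes the caspase-8 regulator cFLIP, was at 8.85 FPKM in A2-siA4 and 7.91 FPKM in Ctrl-siNC (1.12-fold, 0.881 to 1.43). Set against CASP8, CFLAR RNA was 1.87 times its level in A2-siA4 and 0.772 times in Ctrl-siNC. TRAF2 was at 18.3 FPKM in A2-siA4 and 16.5 FPKM in Ctrl-siNC (1.11-fold, 0.946 to 1.30). TRADD was at 14.6 FPKM in A2-siA4 and 16.3 FPKM in Ctrl-siNC, and RIPK1 was at 5.92 FPKM in A2-siA4 and 5.34 FPKM in Ctrl-siNC, so that all 3 signalling proteins of the survival branch had log2 ratios within 0.2 of 0. RIPK3, the kinase that starts necroptosis, was listed at 0 in both libraries.

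Of the proteins that carry out the last steps, GSDMD, the gasdermin whose cleaved form opens pores in the plasma membrane, was at 53.04 FPKM in A2-siA4 and 27.5 FPKM in Ctrl-siNC (1.93-fold higher, 1.72 to 2.15). Its log2 ratio of 0.92 lay just inside the threshold. It passed when libraries were scaled to a common sum or to a trimmed mean and, at 1.01, when the trends were removed. DFFA, the inhibitor of the caspase-activated DNase, was at 90.7 FPKM in A2-siA4 and 104 FPKM in Ctrl-siNC (1.14-fold lower, 1.09 to 1.203). DFFB, the DNase itself, was at 3.31 FPKM in A2-siA4 and 2.32 FPKM in Ctrl-siNC.

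**Figure D4:**
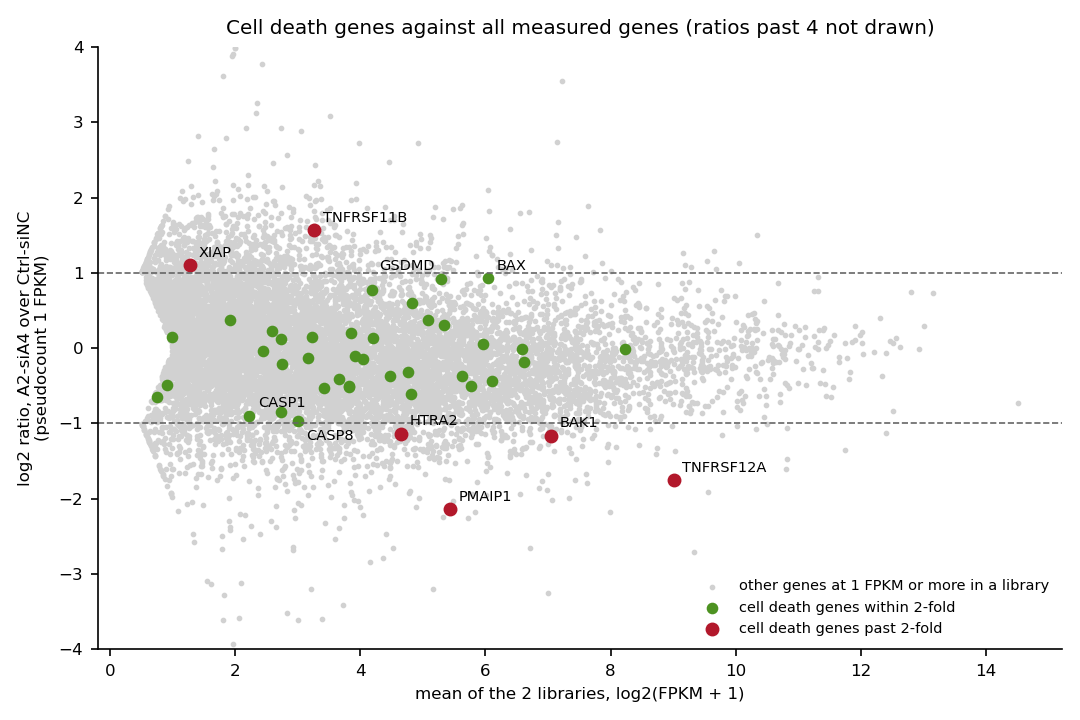
Log2 ratio, A2-siA4 over Ctrl-siNC, against the mean log2(FPKM + 1) of the 2 libraries, with genes at 1 FPKM or more in a library in grey, cell death genes within 2-fold in green and the 6 past 2-fold in red, and dashed lines at the threshold. BAX (0.93), GSDMD (0.92) and CASP8 (-0.97) lie just inside the lines.

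The 54 genes were also read by the factors that textbooks name as their regulators, counting genes above the filter. Of 7 genes often listed as targets of the tumour suppressor p53, PMAIP1 was lower and none was higher, with a median log2 ratio of -0.10, or -0.079 with the trends removed. Of 7 often listed as NF-kappaB targets, 1 was higher, XIAP, no gene was lower, and the median was 0.14. With the trends removed that median was 0.29 and XIAP was no longer past 2-fold. Of 3 often listed as targets of the stress factors ATF4 or CHOP (PMAIP1, BCL2L11 and TNFRSF10B), PMAIP1 was lower, with a median of -0.52, or -0.31 with the trends removed. A single called gene is 14.3% of 7 genes and 33.3% of 3, against 7.85% of all genes higher and 7.61% lower, and nothing is read from counts this small. The median over all genes was -0.06, and PMAIP1 is in 2 of these lists.

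Other genes of the same pathways were read from lists of the same kind, against 7.85% of all genes higher and 7.61% lower. Of 20 TNF receptor signalling genes above the filter, 3 were higher and 0 lower, and the median log2 ratio of 0.15 was 0.0084 with the trends removed. They were FAF1, a FAS-associated protein, at 11.6 FPKM in A2-siA4 and 3.25 FPKM in Ctrl-siNC, OTULIN, which removes linear ubiquitin chains, at 7.35 FPKM in A2-siA4 and 2.54 FPKM in Ctrl-siNC, and CRADD, the adaptor of caspase-2, at 7.09 FPKM in A2-siA4 and 2.57 FPKM in Ctrl-siNC. With the trends removed FAF1 was at 1.35 and CRADD at 1.27, while OTULIN, with a transcript of 7800 bases, was at 0.93 and no longer past 2-fold. Genes that control the turnover of BCL2 proteins or the inhibitors of caspases numbered 10 above the filter, 3 higher and 0 lower, and their median of 0.78 was 0.21 with the trends removed. They were FBXW7, HUWE1 and ARIH1, all components of ubiquitin ligases, and those of FBXW7 and HUWE1 act on MCL1. FBXW7 was at 2.41 FPKM in A2-siA4 and 0.131 FPKM in Ctrl-siNC, on about 74.0 fragments in A2-siA4 and 4.11 in Ctrl-siNC. The Ctrl-siNC value is near the limit of detection, and the fold of 18.4 has a wide counting interval (7.08 to 71.2). HUWE1 was at 7.17 FPKM in A2-siA4 and 2.16 FPKM in Ctrl-siNC. ARIH1 was at 3.17 FPKM in A2-siA4 and 1.03 FPKM in Ctrl-siNC. HUWE1 and ARIH1 have long transcripts, of 14739 bases for HUWE1 and 21681 bases for ARIH1, and were within 2-fold with the trends removed, at 0.54 for HUWE1 and -0.17 for ARIH1.

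Of 14 mitochondrial gatekeepers 1 was lower, the fusion protein MFN1 at 3.75 FPKM in A2-siA4 and 8.50 FPKM in Ctrl-siNC, 0 were higher, and the median of -0.20 was -0.045 with the trends removed, MFN1 being at -1.01. Of 5 further BCL2-related genes 1 was lower, the mitophagy receptor BNIP3 at 79.6 FPKM in A2-siA4 and 169 FPKM in Ctrl-siNC, and 0 were higher. With the trends removed BNIP3 was at -0.82 and no longer past 2-fold, and the list's median of -0.66 was -0.41. Of 3 necroptosis, pyroptosis and inflammasome genes 1 was lower, the caspase-1 substrate IL18, and 0 were higher. IL18 was at 2.06 FPKM in A2-siA4 and 27.0 FPKM in Ctrl-siNC, 13.1-fold lower (7.87 to 22.5), and at -2.97 with the trends removed. This list's median was -0.70, or -1.51 with the trends removed, which leaves out a gene with no matched transcript length. Of 2 death ligands above the filter neither was past 2-fold, with TNF at 7.96 FPKM in A2-siA4 and 14.2 FPKM in Ctrl-siNC and LTB at 5.62 FPKM in A2-siA4 and 3.99 FPKM in Ctrl-siNC. Of 19 further p53 target genes 5 were lower (26.3%, against 7.61% of all genes) and 0 higher, and their median of -0.73 was -0.52 with the trends removed. The 3 furthest of the 5 lower genes were CCNG1 at 25.1 FPKM in A2-siA4 and 62.2 FPKM in Ctrl-siNC, TP53INP1 at 0.542 FPKM in A2-siA4 and 2.57 FPKM in Ctrl-siNC and PLK3 at 17.8 FPKM in A2-siA4 and 40.0 FPKM in Ctrl-siNC. With the trends removed TP53INP1 stayed past 2-fold, at -1.42, and the other 4 lower genes did not, with CCNG1 at -0.83, PLK3 at -0.97, CDKN1A at -0.78 and BTG2 at -0.89.

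**Figure D5:**
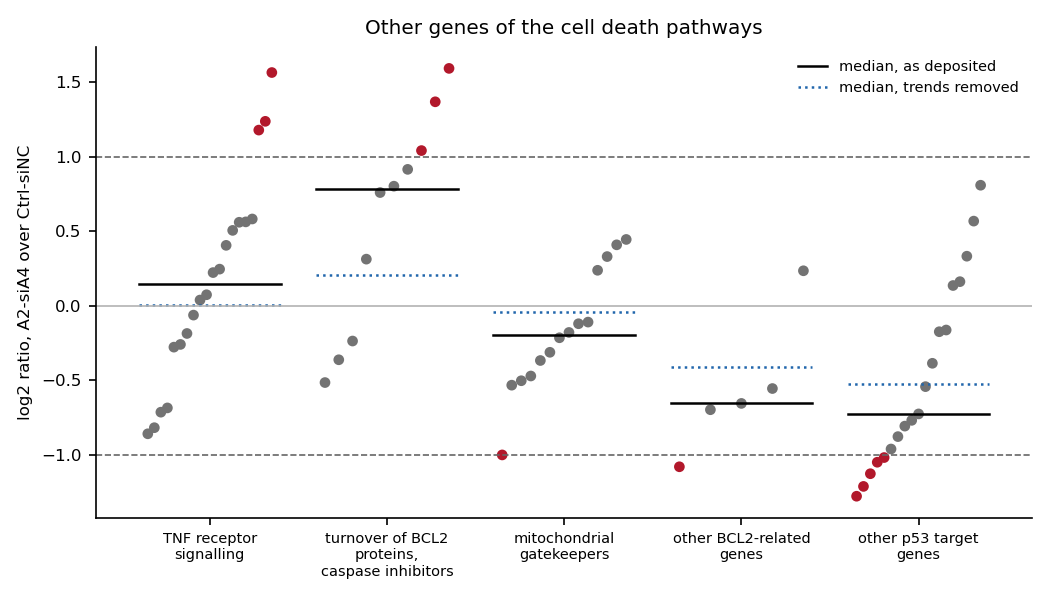
Log2 ratio, A2-siA4 over Ctrl-siNC with 1 FPKM added, of other genes of the cell death pathways at 1 FPKM or more in a library, for the 5 lists with at least 5 such genes shown, with red points past the dashed 2-fold lines, a solid line at the list's median and a dotted line at its median with trends on length, GC content and level removed. The turnover list's median is 0.78 as deposited and 0.21 with the trends removed, and the p53 list's median is below 0 in both forms.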

How the data were processed

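SMART-Seq HT cDNA and Nextera XT libraries, which keep no strand information, were made from total RNA (Qiagen miRNeasy), per the labels' protocols. The authors deposited 1 FPKM table a library, per the file headers. Per the submitters' processing notes, the build was hg19 and the tools included Cuffdiff 2.2.1, TopHat2 2.1.1, SAMtools 0.1.18 and Bowtie2 2.2.8. For the annotation, multi-mapping reads and scaling between libraries, the settings were not given in the sources used here. All 54 symbols were found.

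With 1 library a group no p-value was computed. Transcript lengths and GC content are medians over GENCODE 29 transcripts matched to RefSeq (93.1% of the 11785 genes; all 54 members). Depth and an effective shortening of 200 bases were chosen so that the most values of 11323 single-transcript genes of at least 300 bases lay in a 2% window at 1 fragment. Of 1129 genes above 0 and under 0.3 FPKM in both libraries, 79.7% had a ratio matching whole fragments, 1 to 8 a library, within 0.005 on the log2 scale. Fragment numbers are approximate, since the authors' lengths may differ and PCR copies are not independent. Trends are cubic in log2 length, GC content and mean log2 level. Of the members, 27 share exon bases with another gene in GENCODE 29, 23 of them with one on the opposite strand.

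The members, lists and settings were chosen with earlier results of these data known. Every member is given. Of other genes, up to 3 a direction past the threshold are given, or the 2 most abundant, and MDM2 as the highest ratio of the p53 list. A list and some genes that this rule covers are not reported here. Python 3.11.15, pandas 2.3.3, NumPy 2.4.6, SciPy 1.17.1 and matplotlib 3.10.9 were used, and the calculations were tested on simulated data.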

Additional observations from a re-analysis of the deposited data

How the results depend on the processing

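No paired analysis was possible because each group has 1 library. The 9 alternatives that kept the 2-fold threshold left PMAIP1, TNFRSF12A and TNFRSF11B past it in every case. BAK1 was past it in 8, HTRA2 in 7 and XIAP in 5, and none of these 6 genes changed direction. The settings without a filter, with 5 FPKM in a library and with 1 FPKM in both libraries leave each log2 ratio as it was. A gene that still passes the filter therefore keeps its call there. A change of pseudocount cannot turn a direction, so these tallies overstate how far the calls were tried. XIAP ranged from 0.42 (pseudocount of 5 FPKM) to 1.81 (0.1 FPKM). With a pseudocount of 0.1 FPKM, 7 of the 54 genes were lower (BCL2, CASP1 and CASP8 added), their median was -0.15 (-0.155 against -0.146) and 1630 of all genes were higher. With 5 FPKM, 1 of the 54 was higher, their median was -0.12, and 219 of all genes were higher and 380 lower. Scaled to a common sum, 4 of the 54 were higher (BAX and GSDMD added), their median was -0.0085, the median of the 12020 genes that then passed the filter was 0.08, against -0.06 for the 11785 without scaling, and 1257 of all genes were higher and 685 lower (64.7% higher, against 50.8%). Centred on a trimmed mean, 4 were higher, the median was -0.031 and 62.0% of the called genes were higher. Centred on the median ratio the median was -0.088. Without a filter it was -0.072. With 5 FPKM in a library, 1 was higher, the median was -0.19 and 546 of all genes were higher. With 1 FPKM in both libraries, 1 was higher and 557 of all genes were higher; XIAP no longer passed those filters. With trends removed, 3 were higher and 3 lower, 3 of them called without it too, with a median of -0.13. A 1.5-fold rule gave 6 higher and 9 lower of the 43, 34.9% against 40.4% of all genes (2253 higher, 2505 lower). A 4-fold rule gave 0 higher and 1 lower, PMAIP1, with 71 and 84 of all genes. At about 16 fragments per FPKM of a 2000-base transcript, genes under 1 FPKM rest on few fragments. Leaving out a replicate was not possible.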
